A study of Mus musculus with 6 samples.

Results

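The 10 genes described here are the Notch receptor genes Notch1, Notch2, Notch3 and Notch4, the ligand genes Dll1, Dll4, Jag1 and Jag2, and the target genes Hes1 and Hey1. They were taken by gene name from a count table of 54532 genes, in which each name occurs once. RNA was sequenced from Glu-tag cells, an established mouse enteroendocrine line used in the study to stand for neuroendocrine tumours of the small intestine. The 3 libraries labelled shIRS2 come from cells with a stable hairpin against Irs2, the gene of an insulin receptor substrate, given as an IRS2 knockdown genotype. The 3 shControl libraries come from cells with a control hairpin, given as wild type. The titles number the libraries 1 to 3 within each group, and the design text calls them biological triplicates, although the description of every sample names replicate 1. How many clones each group came from was not known here.

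Notch signalling passes between touching cells. A ligand of the Delta or Jagged kind on one cell binds a Notch receptor on its neighbour, ADAM proteases and then gamma-secretase cut the receptor, and its freed intracellular part joins the DNA-binding protein RBPJ and a Mastermind co-activator to switch on repressor genes of the Hes and Hey families. In the intestine this pathway is known for holding progenitors back from the secretory fates, enteroendocrine cells included, through repression of proneural genes such as Atoh1 and Neurog3 by Hes1.

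Notch2 is shown first with its promoter because it held most of the receptor RNA and was the member that passed a test between libraries, and Notch3 because its hairpin groups did not overlap. The groups of Jag1 did not overlap either, and its window is not printed. Each window runs over 200 bases, from 250 to 51 bases before the RefSeq start of the gene in the RefSeq tables for GRCm38.p6, which is the mm10 assembly. The windows are chr3:98013288-98013487 on the plus strand for Notch2 and chr17:32166941-32167140 on the minus strand for Notch3, printed 5′ to 3′, with capitals marking N-box letters.
Notch2: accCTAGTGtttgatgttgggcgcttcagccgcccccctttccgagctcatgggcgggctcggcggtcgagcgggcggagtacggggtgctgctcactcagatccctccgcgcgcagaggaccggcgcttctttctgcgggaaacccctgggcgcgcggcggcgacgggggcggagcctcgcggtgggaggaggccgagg
Notch3: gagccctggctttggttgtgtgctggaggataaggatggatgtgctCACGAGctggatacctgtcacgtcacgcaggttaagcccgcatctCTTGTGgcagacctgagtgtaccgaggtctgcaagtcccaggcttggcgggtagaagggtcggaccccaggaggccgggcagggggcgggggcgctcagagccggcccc
The N-box was searched as CACNAG and its reverse complement CTNGTG, and it is known as a site for Hes repressors. The Notch2 window held 1 match, the Notch3 window 2 and the Jag1 window 0. Of 9 such windows of 8 members with an entry, 4 held a match, and so did 31.1% of all 32851 windows of that length. The core RBPJ letters TGGGAA or TTCCCA were in 0 of the 9 windows, against 17.9% of all windows. The windows of Notch1, Jag1 and Jag2 and one of Dll1 overlapped the gene as bounded in the count table. These windows thus did not lie wholly before the start given there. Hes1 and Hey1 were not among the promoters used.

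Library totals ran from 15654814 to 16985361 counts in the shIRS2 group and from 14991019 to 19790073 in the shControl group. Irs2 was not lower under its hairpin. It had 31.4, 28.6 and 38.7 CPM (counts scaled to the library's total) in the libraries labelled shIRS2 numbered 1, 2 and 3, against 31.6, 22.7 and 34.3 CPM in the shControl libraries, a log2 fold change of 0.17 (SE 0.16) with an unadjusted p of 0.327 in edgeR, so directions below are those of the labels. The libraries also went against the cell type label. Of 12 enteroendocrine markers, 6 had 0 counts in all 6 libraries, among them Gcg, which encodes proglucagon, Chga and Neurod1, and a total of 0 allows up to 0.0295 CPM. The 12 markers summed to 20.0 to 24.8 CPM in the shIRS2 libraries and to 21.7 to 27.4 CPM in the shControl libraries, nearly all from Pax6, the marker with a mean above 1 CPM. The 7 fibroblast markers summed to 804 to 947 CPM in the shIRS2 libraries and to 578 to 928 CPM in the shControl libraries, mostly from the collagen gene Col3a1. Of the 7, 4 had a mean above 1 CPM, namely Col3a1, Col1a2, Lum and Pdgfra. The rest of that list was nearly absent, with 20 counts in all for Col1a1, 25 for Dcn and 6 for Fap. The 5 lymphocyte, 5 absorptive, 5 goblet and Paneth and 4 stem cell markers each summed to less than 1 CPM in every library.

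Notch2 was the dominant receptor transcript. Per length, it made up 96.1% to 97.5% of the summed FPKM (fragments scaled to the gene's length and the library's total) of the 4 receptors in the libraries labelled shIRS2 and 95.6% to 97.0% in the shControl libraries. Notch2 (ENSMUSG00000027878, chromosome 3, 98013527 to 98150361, plus strand) encodes a broadly expressed receptor. It had 21.4, 26.5 and 23.9 FPKM in the libraries labelled shIRS2 numbered 1, 2 and 3, against 22.4, 27.6 and 22.4 FPKM in the shControl libraries. In both groups the library numbered 2 was the highest, and the groups overlapped almost wholly. Between the groups it differed by -0.01 on the log2 scale (SE 0.11, 95% interval -0.26 to 0.24), at an adjusted p of 1.00 in edgeR. These values rest on 12621 counts in the shIRS2 group and 13859 in the shControl group. Annotated genes that overlap it on the same strand held 47 and 40 counts over all libraries.

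Notch1 (ENSMUSG00000026923, chromosome 2, 26457903 to 26516663, minus strand) encodes the receptor best known for progenitor maintenance in the gut and for T-cell fate. It had 0.468, 0.478 and 0.687 FPKM in the libraries labelled shIRS2 numbered 1, 2 and 3, against 0.609, 0.665 and 0.787 FPKM in the shControl libraries. Each library labelled shIRS2 was below the shControl library of the same number, at log2 ratios of -0.40, -0.49 and -0.20, yet the groups overlapped because the shIRS2 library numbered 3 exceeded the shControl libraries numbered 1 and 2. The log2 fold change of -0.34 (SE 0.19, 95% interval -0.77 to 0.09) did not pass, at an edgeR adjusted p of 1.00. With the replicate number as a block it was -0.35 (SE 0.13, 95% interval -0.63 to -0.06), with an unadjusted p of 0.021 and an edgeR adjusted p of 0.452. A gene on the opposite strand that overlaps Notch1, 0610009E02Rik, held 40 counts over all libraries.

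Notch3 (ENSMUSG00000038146, chromosome 17, 32120820 to 32166880, minus strand), the receptor known from vascular smooth muscle, was close to the limit of detection. It had 2, 4 and 9 counts in the libraries labelled shIRS2 numbered 1, 2 and 3, against 12, 15 and 11 counts in the shControl libraries, which is 0.118, 0.243 and 0.575 CPM against 0.800, 0.758 and 0.621 CPM. All 3 libraries labelled shIRS2 lay below all 3 shControl libraries, a separation seen in this direction in 3.77% of all tested genes, and in 3.08% on TMM-scaled CPM. In the pair numbered 3 the values nearly met, at a log2 ratio of -0.11, whereas the pairs numbered 1 and 2 had -2.77 and -1.64. The estimate was -1.21 on the log2 scale (SE 0.51, 95% interval -2.36 to -0.06), at an unadjusted p of 0.041 and an adjusted p of 1.00 in edgeR. The gene reached the filter on low counts only through the shControl libraries, so its passing the filter already favours a lower level in the shIRS2 group. Without 1 library at a time the estimate ranged from -1.95 to -0.81.

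Notch4 (ENSMUSG00000015468, chromosome 17, 34564268 to 34588503, plus strand), a receptor of endothelium, had 15, 21 and 27 counts in the libraries labelled shIRS2 numbered 1, 2 and 3, against 23, 13 and 25 counts in the shControl libraries. The groups overlapped and the pairs did not share a direction, at log2 ratios of -0.80, 0.96 and 0.29. The log2 fold change was 0.14 (SE 0.39), with an interval from -0.73 to 1.01.

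Because Notch3 and Notch4 are known as vascular genes, markers of vessel cells are given beside them. The 7 endothelial markers summed to 1.95 to 3.18 CPM in the libraries labelled shIRS2 and to 3.44 to 5.07 CPM in the shControl libraries, and 2 of the 7 were tested. These were Pecam1, an adhesion molecule of endothelium, at a log2 fold change of -1.03 (unadjusted p 0.0316), and Esam, another adhesion molecule, at -0.51 (unadjusted p 0.116). Pecam1 had 0.883, 0.487 and 0.511 CPM in the libraries labelled shIRS2, against 1.20, 1.82 and 0.847 CPM in the shControl libraries. The shIRS2 libraries alone would not have brought it past the filter on low counts. Its passing the filter already favours a lower level in the shIRS2 group, so its p-value is no support for a difference. No endothelial marker had 0 counts in all libraries, and the defining genes were sparse, since Cdh5, the endothelial cadherin gene, had 13 counts in all and the receptor gene Kdr had 1 count in the shIRS2 group and 0 in the shControl group. The 7 mural cell markers summed to 39.2 to 50.0 CPM in the libraries labelled shIRS2 and to 42.2 to 55.2 CPM in the shControl libraries, mostly from Pdgfrb, and Kcnj8 had 0 counts. Whether any such cells were present, or had a part in the Notch3 values, was not tested. In bulk RNA fewer cells of a type and less RNA per cell cannot be told apart.

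**Figure D1:**
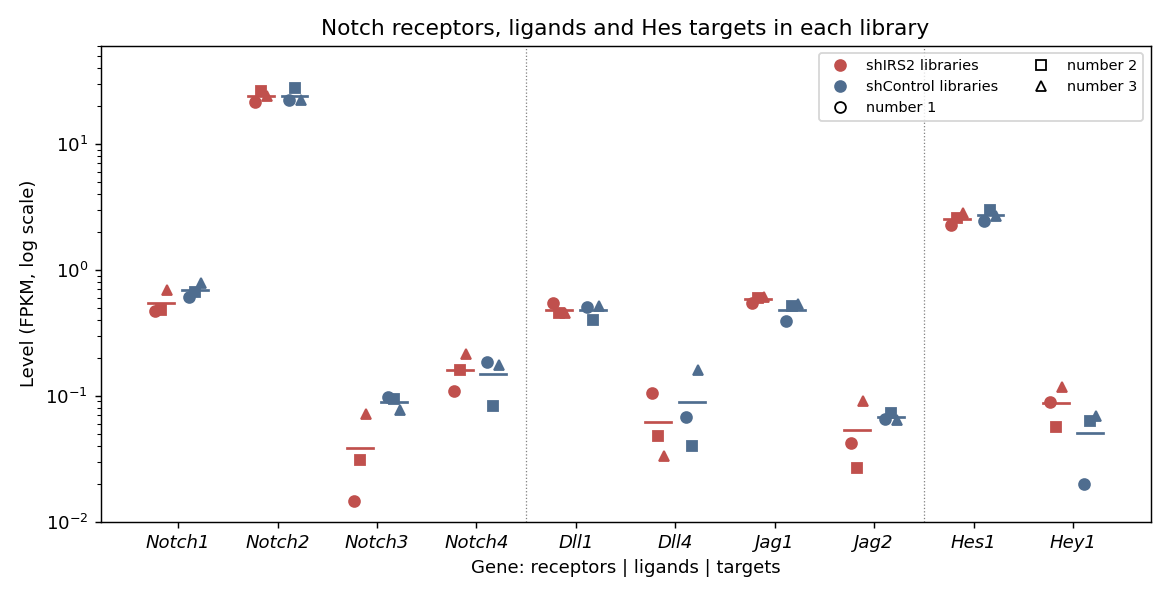
Level of each gene in FPKM on a log scale, for receptors, ligands and targets, with libraries labelled shIRS2 in red left of shControl libraries in blue, the marker shape giving the replicate number and the line the mean of 3 libraries. Notch2 stands at 21.4 to 27.6 FPKM and Hes1 at 2.27 to 3.00 FPKM, while the other 8 genes are all below 1 FPKM.

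Transcripts of the 4 ligands were low, and among these 4 Jag1 and Dll1 held most of the summed FPKM. Dlk2, from the wider list of ligand genes, averaged 1.17 FPKM, more than either. Jag1 (ENSMUSG00000027276, chromosome 2, 137081456 to 137116644, minus strand), the ligand known from bile duct and heart development, had 0.542, 0.594 and 0.610 FPKM in the libraries labelled shIRS2 numbered 1, 2 and 3, against 0.392, 0.515 and 0.538 FPKM in the shControl libraries. The lowest shIRS2 value lay just above the highest shControl value, an order seen in 2.75% of all tested genes (3.24% on TMM-scaled CPM). Neither fit called it. It was 0.27 on the log2 scale (SE 0.22, 95% interval -0.22 to 0.75), at an unadjusted p of 0.246, and 0.27 (SE 0.20) in the fit with the replicate block, at an adjusted p of 0.726 in edgeR.

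Dll1 (ENSMUSG00000014773, chromosome 17, 15367354 to 15376872, minus strand), a Delta-type ligand that acts in intestinal secretory progenitors and somites, had 0.541, 0.454 and 0.452 FPKM in the libraries labelled shIRS2 numbered 1, 2 and 3, against 0.510, 0.398 and 0.518 FPKM in the shControl libraries. The groups overlapped, with an estimate of 0.03 on the log2 scale (SE 0.25, 95% interval -0.52 to 0.58). Its mean of 0.479 FPKM over the 6 libraries was not separated from that of Jag1, at 0.532 FPKM.

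Dll4 (ENSMUSG00000027314, chromosome 2, 119325784 to 119335962, plus strand), the ligand of sprouting vessels, had 7, 3 and 2 counts in the libraries labelled shIRS2 numbered 1, 2 and 3, against 4, 3 and 11 counts in the shControl libraries. Jag2 (ENSMUSG00000002799, chromosome 12, 112907819 to 112929776, minus strand), the second Jagged ligand, had 5, 3 and 10 counts in the libraries labelled shIRS2, against 7, 10 and 8 counts in the shControl libraries. Both were under the filter on low counts, and in both the group ranges overlapped. Fitted without that filter, the 95% interval of the log2 fold change ran from -1.86 to 0.91 for Dll4 and from -1.51 to 0.82 for Jag2, and differences within these bounds are not excluded by so few counts.

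Hes1, the main repressor gene switched on by Notch in the gut, was the second most abundant of the 10 genes per length. Hes1 (ENSMUSG00000022528, chromosome 16, 30064384 to 30067796, plus strand) had 2.27, 2.58 and 2.81 FPKM in the libraries labelled shIRS2 numbered 1, 2 and 3, against 2.43, 3.00 and 2.67 FPKM in the shControl libraries. The groups overlapped. Their difference on the log2 scale was -0.09 (SE 0.18, 95% interval -0.49 to 0.32), with pair ratios of -0.12, -0.23 and 0.07. Hey1 (ENSMUSG00000040289, chromosome 3, 8663359 to 8667256, minus strand), a related repressor known from heart and vessels, had 5, 3 and 6 counts in the libraries labelled shIRS2, against 1, 4 and 4 counts in the shControl libraries. At 23 counts in all, Hey1 was not tested with the filter. Without it the estimate was 0.74 on the log2 scale (SE 0.81, 95% interval -0.85 to 2.34).

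Ordered by mean FPKM over the 6 libraries, Notch2 at 24.0 was followed by Hes1 at 2.63, Notch1 at 0.616, Jag1 at 0.532, Dll1 at 0.479, Notch4 at 0.154, Dll4 at 0.0758, Hey1 at 0.0690, Notch3 at 0.0642 and Jag2 at 0.0605. Notch2, Hes1 and the group of Notch1, Jag1 and Dll1 had ranges over the 6 libraries that did not overlap, and neither did those of Dll1 and Notch4. The ranges of the other neighbours overlapped. Among 22046 protein-coding genes, Notch2 ranked 2286 by mean FPKM and Hes1 ranked 8549.

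No member passed the test between the hairpin groups. Of the 7 members tested, 0 were called at an adjusted p of 0.05 by edgeR, by DESeq2 or by limma on log2 FPKM, against a background of 0.0% of 13472 genes in the edgeR fit. At an unadjusted p under 0.05 there was 1 member, Notch3, against 1.94% of all genes, and Notch3 entered the tested set only through its shControl libraries, so this and the counts below that include it are no support for a difference. With the replicate block 0 members were called, against a background of 0.00742%. Notch1 and Notch3 lay under an unadjusted p of 0.05 there, as did 9.16% of all genes. The groups did not overlap for 2 of the 7 tested members, Notch3 and Jag1, against 6.52% of all tested genes. The log2 fold changes of the 7 members had a median of -0.01, and that of all tested genes was 0.00. For the better measured members the intervals bound the difference. In the fit with the group only they leave at most 0.26 on the log2 scale in either direction for Notch2, and 0.49 for Hes1. With the replicate block the intervals ran from -0.14 to 0.11 for Notch2 and from -0.43 to 0.26 for Hes1.

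**Figure D2:**
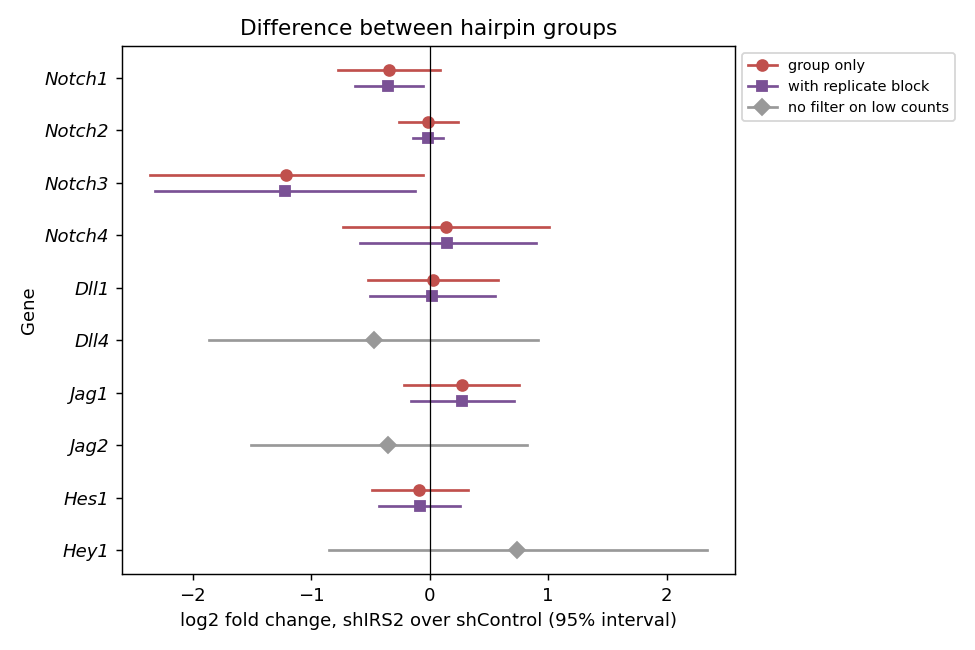
Log2 fold change of each gene, libraries labelled shIRS2 over shControl libraries, with its 95% interval, from the fit with the group only (circles), with the replicate block (squares) and, for the 3 genes under the filter on low counts, without the filter (grey). Notch3, at -1.21 and -1.22, and Notch1 with the block, at -0.35, have intervals to the left of 0, and none passed after adjustment.

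The replicate number separated Notch2 where the hairpin did not. Both libraries numbered 2 had the highest Notch2 level, at 281 CPM in the shIRS2 library and 295 CPM in the shControl library, while the libraries numbered 1 and 3 had 232 and 259 CPM in the shIRS2 group and 247 and 244 CPM in the shControl group. Over the numbers, with the group as a covariate, edgeR's quasi-likelihood F test gave an adjusted p of 0.0178. The log2 difference of number 2 over the mean of numbers 1 and 3 was 0.26 (SE 0.06, 95% interval 0.13 to 0.39), and edgeR gave an adjusted p of 0.00674. The contrast with number 2 was chosen with earlier results of these libraries known. It rests on 2 libraries numbered 2. Leaving out the shControl library numbered 2 gave 0.23 with an adjusted p of 0.293, leaving out the shIRS2 library numbered 2 gave 0.30 with 0.0951, and the F test then gave 0.464 and 0.187.

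Notch2 was 1 of 7 tested members called over the numbers, where 19.6% of all tested genes were called, and the 1 member called for number 2 against numbers 1 and 3, where 23.5% of all genes were called and 11.6% were called higher. The members' share is therefore near the background of these libraries. That background itself leans on the libraries numbered 2, since 1081 genes were called for number 2 without that of shIRS2 and 808 without that of shControl, against 3169 with both. Notch1 was not called over the numbers, with means of 7.79, 8.05 and 10.6 CPM for the numbers 1, 2 and 3 and an adjusted p of 0.106. Both libraries numbered 3 were the highest of their group for Notch1, at 9.84 CPM in the shIRS2 library and 11.3 CPM in the shControl library. Hes1 had number means of 4.86, 5.62 and 5.61 CPM and Jag1 had 2.76, 3.19 and 3.37 CPM, with adjusted p-values of 0.600 and 0.633 from the F test in edgeR. For Dll1, Notch4 and Notch3 these were 0.731, 0.465 and 0.839.

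**Figure D3:**
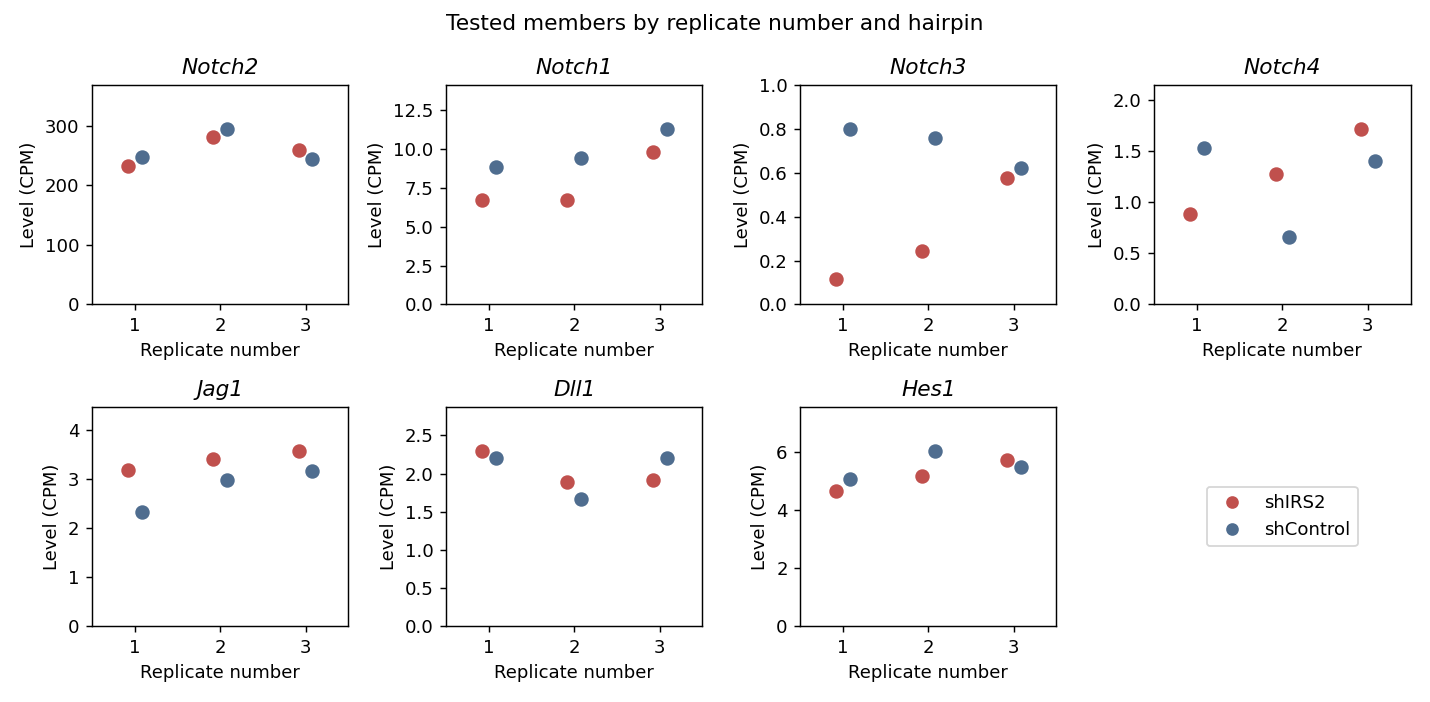
Level of the 7 tested genes in CPM by replicate number, libraries labelled shIRS2 in red left of shControl libraries in blue, 1 point a library. For Notch2 both libraries numbered 2 stand highest, at 281 and 295 CPM, and for Notch1 the red point is below the blue one at each number.

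The rest of the pathway was described from 9 lists that hold 111 genes, of which 80 were tested and 13 had 0 counts in all libraries. None was called between the hairpin groups by edgeR, and 1 of the 80, Notch3 with the limit given above, had an unadjusted p under 0.05. With the replicate block none of the 80 was called either. In that fit 10 of the 80, Notch3 among them, had an unadjusted p under 0.05, which is 12.5% against 9.16% of all genes. The machinery that cuts and reads the receptor was expressed. Of 10 genes of receptor cleavage, 9 had a mean above 1 CPM, and of 19 genes of the nuclear complex, 18 did. Rbpj, the DNA-binding partner of the cut receptor, had 457, 482 and 418 CPM in the libraries labelled shIRS2 numbered 1, 2 and 3, against 414, 463 and 445 CPM in the shControl libraries, and a log2 fold change of 0.05. Its mean level was 34.9 FPKM, and that of Notch2 was 24.0 FPKM.

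Among cleavage genes the smallest p between the hairpin groups belonged to Ncstn, the nicastrin subunit of gamma-secretase, at a log2 fold change of 0.22 (unadjusted p 0.117), and 8 of the 10 genes were positive, with a list median of 0.04. In the nuclear complex Tle2, a Groucho-type co-repressor, had 0.62 (unadjusted p 0.0596) and Maml3, a Mastermind co-activator, 0.21 (unadjusted p 0.0609), with 10 of 18 tested genes positive and a median of 0.02. With the replicate block Tle2 had an unadjusted p of 0.000693 and an edgeR adjusted p of 0.215. In that fit Ncstn had an unadjusted p of 0.00555 and an edgeR adjusted p of 0.379, and Maml3 had 0.0167 and 0.431. Of 8 glycosylation genes, which encode enzymes that modify the receptor's extracellular part, 3 were positive, and Mfng, a Fringe glycosyltransferase, had -0.52 (unadjusted p 0.192). Mfng held 27 counts in the shIRS2 group and 42 in the shControl group. The shIRS2 libraries alone would not have brought it past the filter on low counts, so its passing already favours a lower level in that group. Of 15 tested genes of trafficking and ubiquitination 9 were positive, and Nedd4, a ubiquitin ligase, had 0.17 (unadjusted p 0.0738). With the replicate block Nedd4 had an unadjusted p of 0.0282 and an edgeR adjusted p of 0.479.

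Of 12 genes of the Hes and Hey family and its relatives, 5 had a mean above 1 CPM and were tested, and Hey2 and Heyl, repressors of heart and vessel development, had 0 counts in all libraries. Hes7, which is known from the somite clock, had 2.18, 0.913 and 3.13 CPM in the libraries labelled shIRS2 numbered 1, 2 and 3, against 1.40, 0.455 and 1.98 CPM in the shControl libraries, a log2 fold change of 0.72 (unadjusted p 0.206). The library numbered 2 was the lowest in both groups. Hes6, a family member that counteracts Hes1, had a mean of 3.20 FPKM and a log2 fold change of -0.15. Of 13 tested genes listed as other targets 8 were positive, with Gata3, a factor of T-cell and epithelial fate, at 0.93 (unadjusted p 0.0588) on 41 counts in the shIRS2 group and 23 in the shControl group. The shControl libraries alone would not have brought Gata3 past the filter on low counts. Its passing the filter already favours a higher level in the shIRS2 group, so this value is no support for a difference. With the replicate block 4 of these 13 genes had an unadjusted p under 0.05, as did 9.16% of all genes, and none was called. These were Notch1 and Notch3, described above, Cdkn1a at 0.30 (edgeR adjusted p 0.22) and Sox9 at 0.26 (edgeR adjusted p 0.39). Nrarp, a feedback inhibitor of Notch that was named after its values were seen, had a mean of 0.530 FPKM and a log2 fold change of 0.13. Of the proneural and secretory genes that Hes repressors are known to restrain or that follow them, 8 of 17 had 0 counts in all libraries, among them Atoh1, Neurog3 and Neurod1. The 5 tested genes of that list had a median log2 fold change of -0.13, with Nkx2-2, a regulator of enteroendocrine fate, at -0.25 (unadjusted p 0.287).

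By replicate number, 26 of the 80 pathway genes were called in the F test, which is 32.5% against 19.6% of all genes. For number 2 against numbers 1 and 3, 8 were called higher and 20 lower, which is 10.0% and 25.0% against 11.6% and 11.9% of all genes. Of the 15 tested genes of trafficking and ubiquitination 6 were called lower and 1 higher. The higher one was Fbxw7, a ubiquitin ligase subunit that marks the cut receptor for destruction, at 0.31. Mib2, a ubiquitin ligase that acts on ligands, had 27.7 CPM in the shIRS2 library numbered 2 and 27.5 CPM in the shControl library numbered 2, against 46.1 to 63.9 CPM in the other 4 libraries, a log2 difference of -0.89. The related ligase gene Neurl1a had -0.89, Neurl1b -0.59 and Numbl, a relative of the Notch inhibitor Numb, -0.80. All 10 cleavage genes were negative, and 3 of them passed, among them Ncstn at -0.25 and Aph1a, another gamma-secretase subunit, at -0.24. In the nuclear complex 3 of 18 tested genes were called lower and 2 higher, where 11.9% and 11.6% of all genes were. Maml1, a Mastermind co-activator, fell by 0.40, Tle2 fell by 0.62 and Kat2b fell by 0.25 on the log2 scale. Snw1, a co-activator that binds the cut receptor, rose by 0.28 and Tle1, a co-repressor, rose by 0.25.

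Of the 5 tested genes of the Hes and Hey family and its relatives 4 were called lower in the libraries numbered 2, where 11.9% of all genes were. These were Hes7 at -1.62, Bhlhe40 at -1.05, Bhlhe41 at -0.62 and Hes6 at -0.59, whereas Hes1 had 0.14 (SE 0.17, adjusted p 0.596 in edgeR). Bhlhe40 and Bhlhe41 are clock and stress regulators that share the family's fold and are not classical Notch targets. Of the genes listed as other targets, which answer to many signals besides Notch, Cdkn1a, a cell-cycle inhibitor, fell by 1.27 and Sox9, a progenitor factor, fell by 0.54, while Ccnd1, which encodes cyclin D1, rose by 0.72 and Myc rose by 0.45. Dlk2, a Delta-like gene without the receptor-binding domain of the classical ligands, rose by 1.14. In the secretory list Gfi1, a repressor downstream of Atoh1 in the gut, fell by 1.27, at 0.913 CPM in the shIRS2 library and 1.06 CPM in the shControl library numbered 2, against 1.73 to 3.61 CPM in the other 4 libraries.

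**Figure D4:**
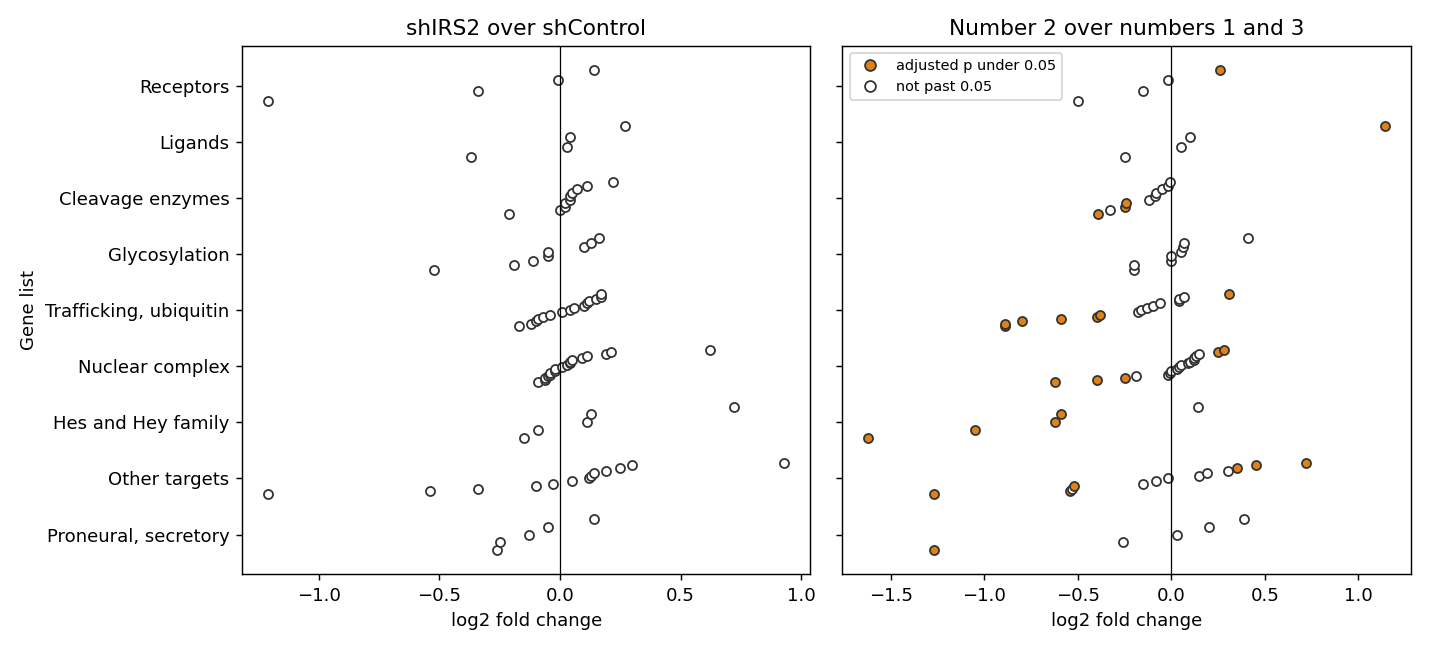
Log2 fold change of every tested gene of the 9 pathway lists, for libraries labelled shIRS2 over shControl libraries (left) and for number 2 over numbers 1 and 3 (right), with genes past an adjusted p of 0.05 filled. No gene is filled on the left, and on the right 28 of 80 genes are filled, 20 of them left of 0, a gene of more than 1 list being drawn in each.

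The genes whose level followed a member most closely over the 6 libraries are given as a description, since 6 points shared by 2 hairpins and 3 numbers leave many genes alike. For Notch2 these were Plec, which encodes the cytoskeletal linker plectin, at a Pearson r of 0.996, Nol6, a nucleolar protein gene, at 0.995, and Camkk2, a calcium-dependent kinase gene, at 0.993, among 8761 protein-coding genes averaging 10 CPM or more. For Jag1 they were Rab10, Xxylt1 and Tpm2 at 0.993, 0.974 and 0.973. For Hes1 they were Rhou, Grb2 and Tiam1 at 0.992, 0.977 and 0.963. Xxylt1, a xylosyltransferase that acts on Notch receptors, is also in the glycosylation list and had a log2 fold change of 0.10 between the hairpin groups.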

How the data were processed

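Strand-specific (dUTP) libraries of poly(A) RNA were sequenced with 150 bp paired reads, per the labels' protocols. The authors deposited raw counts per gene and, separately, FPKM, equal to the count over the listed length and a library total. The build is mm10, per the submitters' processing notes. Aligner, counter and strand setting were not given, so counts of overlapping genes are uncertain. Columns beginning NC were read as shControl and those beginning S as shIRS2, by name.

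The tests used edgeR 4.0.16 in R 4.3.3: filterByExpr (13472 genes kept), TMM, robust quasi-likelihood fits with the group as the only term (a covariate in tests over the numbers), two-sided, with Benjamini-Hochberg adjustment over all tested genes and a threshold of 0.05. Adjusted p-values are edgeR's unless another tool is named. SEs come from the fold change and the F statistic. Alternatives were DESeq2 1.42.0, limma 3.58.1 on log2(FPKM + 1) or log2(FPKM + 0.1), other filters and scalings, and libraries left out. Fits were tested on simulated data.

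The labels tie no replicate number to a culture or date. The spread behind each p-value is that between these libraries and may be technical. Deviations of same-numbered libraries from their group means correlated at 0.166, 0.576 and 0.260 for numbers 1, 2 and 3, and on that ground the numbers were taken to pair the libraries. The ground is weak for number 1 and little better for number 3. The shIRS2 library numbered 1 correlated at 0.199 with the shControl library numbered 3. The shControl library numbered 1 correlated at 0.189 with the shIRS2 library numbered 3. Deviations within a group cancel out, so the match of number 2 by itself makes the libraries numbered 1 and 3 alike across groups.

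Members, lists and tests were chosen with earlier results of these data known. The genes named were Irs2, the members, Rbpj, Atoh1, Neurog3, Gcg, up to 4 genes of a list with the smallest p in either test, and the 3 genes most like the top receptor, ligand and target. Other names, markers apart, were chosen after their values were seen. One item the rule names is not reported here.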

Additional observations from a re-analysis of the deposited data

How the results depend on the processing

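Between the hairpin groups the count of called genes was 0 with median-ratio size factors, in both limma fits, without both libraries numbered 2 and without each single library, a range of 0 to 0. It was 6 without a filter on low counts, 2 with DESeq2 (Gm44126 and Gm2446, named after their values were seen) and 1 with the replicate block (Gm44126), and no member was called in any of these 13 alternatives. The replicate block changed no member's call. Signs of small differences turned: without both libraries numbered 2 the log2 fold change was 0.01 for Notch2, -0.17 for Notch4 and -0.05 for Dll1, and leaving out single libraries moved it from -0.09 to 0.09, from -0.17 to 0.35 and from -0.09 to 0.09 for these genes. Over the replicate numbers 1634 genes were called by DESeq2, 781 and 862 by limma with 1 and 0.1 added, and 798 to 3774 without single libraries, against 2638. For number 2 against numbers 1 and 3 these counts were 1968, 1808, 1831 and 808 to 3687, against 3169. In the fits without 1 library numbered 2, the lone other is assumed to vary like the rest. Notch2 was called for number 2 in 10 of 12 alternatives and over the numbers in 8 of 12, with adjusted p-values of 0.0963 and 0.0943 in the limma fits of the F test. For number 2, Notch3 turned to 0.04 with no term for the group and ranged from -0.66 to 0.69 without single libraries, and Notch4 ranged from -1.11 to 0.04. Depth limits Notch3, Dll4, Jag2 and Hey1, at 53, 30, 43 and 23 counts over 6 libraries. The causes were not tested.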
